A study of Mus musculus with 7 samples.

Results

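The cytosolic ribosomal proteins and their muscle paralog Rpl3l were described in immobilized mouse gastrocnemius, a calf muscle made mostly of fast fibres. Members were the genes whose symbol follows the ribosomal protein pattern (Rpl or Rps and a number with an optional a, x, y or l ending, Rplp0 to Rplp2, and Rpsa), which took in 83 of the 21487 genes of the deposited table, 50 of the large subunit and 33 of the small subunit, paralogs included. The pattern used names only and no measured value. The study compared muscle of mice with a skeletal-muscle-specific knockout of DJ-1 (Park7), named MPARK7KO (4 libraries, knockout 1 to 4), with muscle of floxed mice that the labels also call WT (3 libraries, control 1 to 3). Both groups had undergone immobilization to cause muscle atrophy and unrestrained muscle was not analysed here, so the comparison was knockout minus control within immobilized muscle. DJ-1 is known to help cells withstand oxidants. The sources used here do not name the promoter that drove the recombinase or the age and sex of the mice. Nothing in the labels ties each library to an animal of its own, so p-values measure the spread between samples only.

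A cytosolic ribosome is built from a small subunit, which reads the mRNA, and a large subunit, which joins amino acids, and each ribosomal protein is normally present once per ribosome, apart from the stalk proteins P1 and P2. The mRNAs of most of these proteins begin with a C followed by a run of pyrimidines, the terminal oligopyrimidine (TOP) start, through which mTOR and LARP1 control their translation and stability. Striated muscle is unusual in carrying Rpl3l, a paralog of Rpl3 found in heart and skeletal muscle, and in mouse muscle the general gene Rpl3 is known to replace it when fibres grow.

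Library totals ran from 24458343 to 26389010 counts. Park7 averaged 37.3 CPM (counts scaled to library size) in knockout libraries, against 245 CPM in control libraries, a log2 fold change of -2.71 (edgeR, Benjamini-Hochberg adjusted p = 2.52e-06). The 10 markers of skeletal fibres, fast-type genes such as Tnnt3 and Actn3 among them, summed to 115500 to 146400 CPM in knockout libraries and to 113700 to 133300 CPM in control libraries, high in all of them. The groups differed in other cell markers without overlap: the 10 slow fibre markers summed to 91.0 to 777 CPM in knockout libraries, against 1974 to 2390 CPM in control libraries, and the 8 adipocyte markers to 169 to 353 CPM in knockout libraries, against 712 to 1059 CPM in control libraries. The 8 Schwann cell markers, at 47.4 to 65.0 CPM in knockout and 73.0 to 289.9 CPM in control libraries, did not overlap either. The fibroblast markers, 610 to 819 CPM in knockout and 694 to 1232 CPM in control libraries, overlapped. No marker of these lists was at 0 in every library. In whole muscle, fewer cells of a type and less RNA per cell cannot be told apart.

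The paralog pair Rpl3 and Rpl3l is shown first because reads must be told apart between the genes. In GRCm38, Rpl3 lies at chr15:80077791-80091868 on the minus strand and Rpl3l at chr17:24727820-24736143 on the plus strand, 5890 bases downstream of Rps2 (chr17:24718116-24721929) on the same strand. Over 1212 aligned coding bases the genes were 73.68% identical, and the longest run that both transcripts share was 22 bases. The first 120 coding bases of the GENCODE transcripts are given below from the start codon, with the 31 bases that differ between the genes in capitals.
Rpl3: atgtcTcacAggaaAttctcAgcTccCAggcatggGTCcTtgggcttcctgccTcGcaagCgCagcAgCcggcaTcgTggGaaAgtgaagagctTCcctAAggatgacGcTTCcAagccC
Rpl3l: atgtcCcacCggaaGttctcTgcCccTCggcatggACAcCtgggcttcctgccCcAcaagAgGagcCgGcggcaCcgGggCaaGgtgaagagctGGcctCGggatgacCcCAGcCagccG
Differing bases were spread along the whole stretch, and every deposited Rpl3l count was a whole number, so the values show no sign of reads shared out between Rpl3l and another gene.

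Most ribosomal protein mRNAs stood slightly higher in knockout muscle than in control muscle, and few differences passed the test. Of the 82 members that passed the filter on low counts, 4 rose (4.88%) and 0 fell at an adjusted p under 0.05, beside 6.67% of all 13409 tested genes that rose and 8.23% that fell. The 4 were Rpl41, Rps18, Rpl26 and Rpl7l1. At an unadjusted p under 0.05 the same edgeR test had 17 members higher and 5 lower, beside 15.3% and 16.4% of all genes, and DESeq2 called 10 higher (12.2%) and 0 lower at an adjusted p under 0.05, beside 8.17% and 8.64% of all genes with an adjusted p. The share of members that rose was thus below that of all genes in the edgeR test at the adjusted threshold and above it in DESeq2. Upper quartile scaling or total counts in place of TMM left 1 member called.

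The log2 fold change was above 0 for 65 of 82 members and below 0 for 17, beside 50.7% of all tested genes above 0. The large subunit (49 tested) had a median of 0.13 and the small subunit (33 tested) a median of 0.06, beside 0.01 for all tested genes, whose quartiles were -0.27 and 0.20. In the large subunit 39 members were above 0 and in the small subunit 26. Set against the control mean, the median large subunit gene stood at 0.20, 0.17, 0.01 and 0.15 (log2) in knockout 1 to 4, against -0.08, 0.09 and 0.00 in control 1 to 3. Knockout 3 and control 2 crossed each other, so the groups overlapped. In the small subunit the same medians were 0.16, 0.07, -0.10 and 0.08 in knockout 1 to 4 and -0.07, 0.07 and -0.01 in control 1 to 3, again with overlap. The replicates of a group spread around their mean by 0.09 (large) and 0.10 (small) on this scale. That is the spread of single libraries and not of a difference between groups, so it does not judge either median. Neither median was tested.

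Every knockout library lay above every control library for 17 members (20.7%), beside 14.0% of all tested genes, and below for 3 (3.66%), beside 14.8%. The 3 below were Rps4l, Rplp0 and Rpl3l. Of the 17 above, 12 belonged to the large subunit (Rpl4, Rpl6, Rpl13, Rpl22, Rpl26, Rpl32, Rpl34, Rpl37, Rpl38, Rpl39, Rpl41 and Rpl7l1) and 5 to the small subunit (Rps2, Rps7, Rps10, Rps14 and Rps18).

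**Figure D1:**
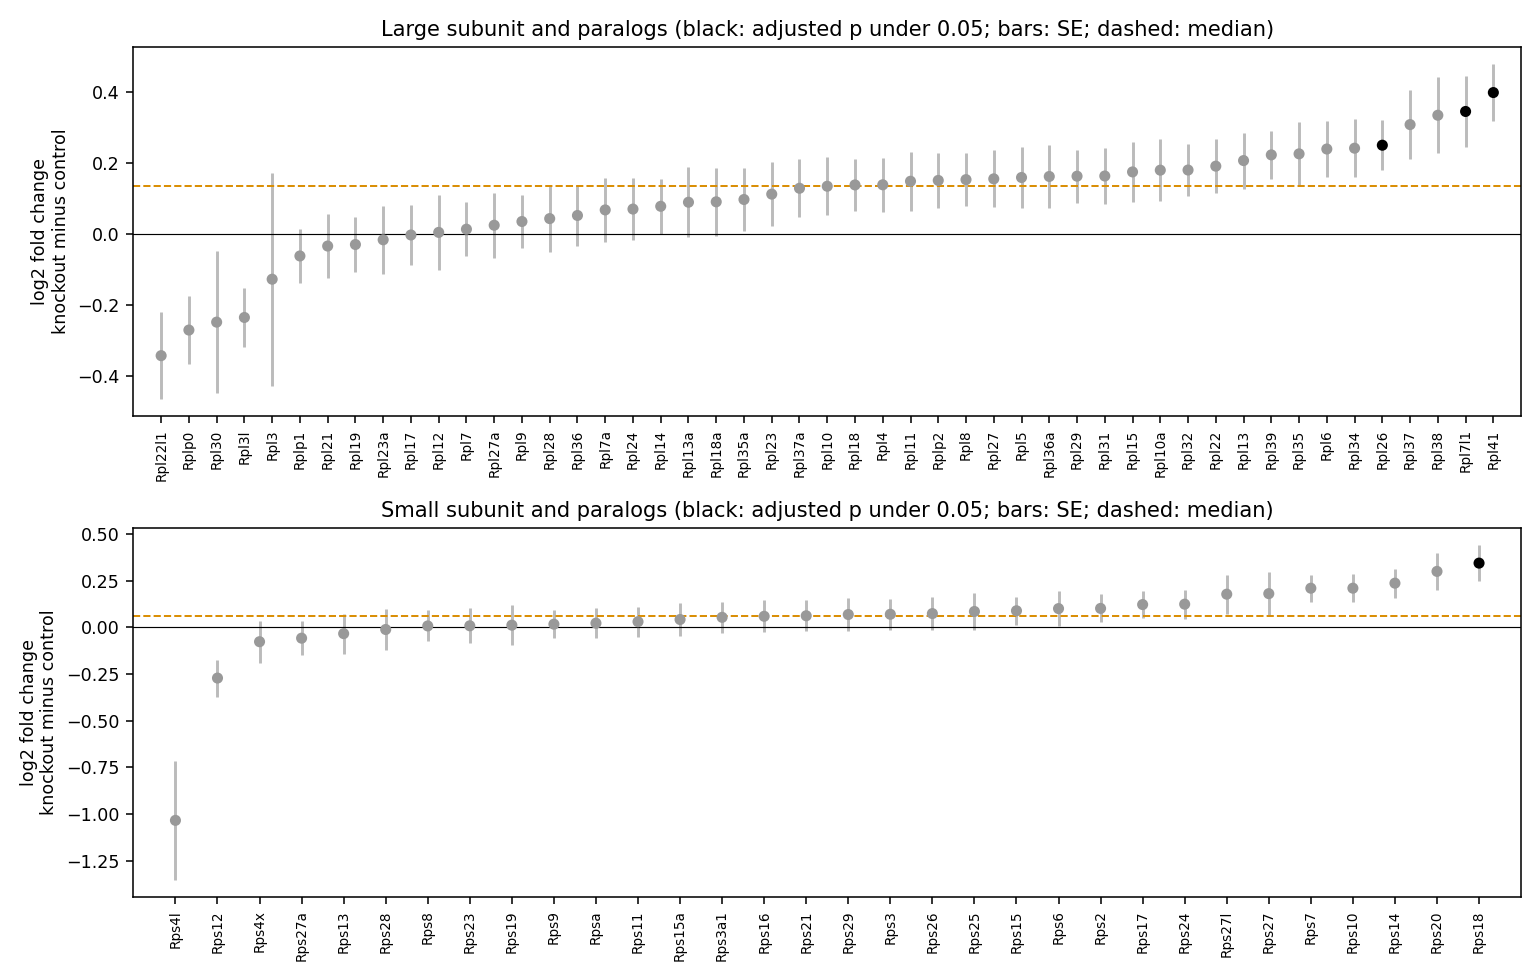
Log2 fold change (knockout minus control) of the tested members, ordered within the large subunit (49 genes, upper panel) and the small subunit (32 of 33 genes, lower panel), with bars for the standard error, a dashed line at the median of all tested genes of the subunit and black points for the 4 genes with an adjusted p under 0.05. Most large subunit genes sit above 0 near the median of 0.13, and Rps4l at -1.03 stands far below the rest of the small subunit.

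Together the members held 1.51%, 1.35%, 1.18% and 1.32% of all counts in knockout 1 to 4 and 1.23%, 1.32% and 1.25% in control 1 to 3, or 1.34% ± 0.134 in knockout (SD, n = 4) and 1.27% ± 0.0522 in control libraries (SD, n = 3). Knockout 1 was the highest and knockout 3 the lowest of all 7, with the controls between them. The denominator mattered. Messages of mitochondrial DNA held 10.4% ± 1.40 of the counts in knockout and 18.6% ± 1.51 in control libraries, without overlap, and over the remaining counts the members held 1.49% ± 0.168 in knockout and 1.56% ± 0.0686 in control libraries. Small subunit counts were 0.656 ± 0.00823 of large subunit counts in knockout and 0.654 ± 0.00907 in control libraries, so the balance between the subunits differed by less than the spread between libraries.

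Rpl41, Rps18, Rpl26 and Rpl7l1, the 4 members that rose, have different roles in the ribosome and its assembly. Rpl41 (chr10:128548114-128549305, minus strand) encodes one of the smallest known proteins, a basic peptide of the large subunit that lies at its interface with the small subunit. It had 90.8, 95.7, 88.7 and 98.6 CPM in knockout 1 to 4, against 66.6, 69.0 and 77.3 CPM in control 1 to 3. The lowest knockout library stood above the highest control library. The log2 fold change was 0.40 with a standard error (SE) of 0.0800 (edgeR adjusted p = 0.0149), the smallest p of any member, and the call was lost without control 1 (adjusted p = 0.0683) and without control 2 (adjusted p = 0.0524).

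Rps18 (chr17:33951999-33956001, minus strand) encodes a protein of the head of the small subunit that takes part in a bridge to the large subunit. It had 133, 125, 114 and 118 CPM in knockout 1 to 4, against 87.9, 109.8 and 91.8 CPM in control 1 to 3. Control 2 came within a few CPM of knockout 3, and the groups did not overlap. The log2 fold change was 0.34 (SE 0.0970, edgeR adjusted p = 0.0449). Rpl26 (chr11:68901583-68906989, plus strand) encodes a protein near the exit of the peptide tunnel that in human cells also binds p53 mRNA. It had 156, 151, 137 and 151 CPM in knockout 1 to 4, against 125, 125 and 126 CPM in control 1 to 3, and the controls were almost the same as each other. Its log2 fold change was 0.25 (SE 0.0704, edgeR adjusted p = 0.0448), and its counts were not whole in all 7 libraries, so some of its reads were shared out among similar genes.

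Rpl7l1 (chr17:46773907-46782672, minus strand) encodes a relative of Rpl7 that is known, through its yeast counterpart, as an assembly factor of the large subunit rather than a part of the finished ribosome. It had 38.7, 39.3, 35.9 and 32.2 CPM in knockout 1 to 4, against 26.7, 31.7 and 27.9 CPM in control 1 to 3. Knockout 4 and control 2 lay side by side without crossing. The log2 fold change was 0.34 (SE 0.1, edgeR adjusted p = 0.0489). Rps18, Rpl26 and Rpl7l1 were close to the threshold: leaving out 1 library at a time kept the call only without control 2 for Rps18, only without knockout 3 for Rpl26 and only without knockout 4 for Rpl7l1.

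Rpl38, Rpl39, Rps20 and Rps14 had log2 fold changes above 0 that did not pass the edgeR test, while DESeq2 called all 4. Rpl38, a large subunit protein known in mouse embryos for its part in translating Hox mRNAs, had 63.8, 51.6, 46.8 and 54.6 CPM in knockout 1 to 4, against 41.5, 43.2 and 44.2 CPM in control 1 to 3 (log2 fold change 0.33, edgeR adjusted p = 0.0661). Rpl39, a small protein of the peptide tunnel wall, had 63.7, 62.0, 59.5 and 60.9 CPM in knockout 1 to 4 and 51.8, 51.5 and 55.0 CPM in control 1 to 3 (log2 fold change 0.22, edgeR adjusted p = 0.0584). In both genes each knockout library lay above each control library. Rps20, a protein of the small subunit head, had 170, 162, 141 and 149 CPM in knockout 1 to 4 and 119, 142 and 118 CPM in control 1 to 3, with knockout 3 just below control 2 (log2 fold change 0.30, edgeR adjusted p = 0.0715). Rps14, a protein of the small subunit platform, had 242, 235, 215 and 240.4 CPM in knockout 1 to 4 and 187, 210.4 and 196 CPM in control 1 to 3, without overlap (log2 fold change 0.24, edgeR adjusted p = 0.0715).

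Rpl3l, the striated muscle paralog, stood against the direction of most members. It had 332, 398, 357 and 388 CPM in knockout 1 to 4, against 442, 421 and 438 CPM in control 1 to 3. All knockout libraries lay below all control libraries. The mean was 369 ± 30.1 CPM in knockout (SD, n = 4) and 434 ± 10.9 CPM in control libraries (SD, n = 3), and the log2 fold change of -0.23 had a 95% interval of -0.40 to -0.07. It did not pass the edgeR test after adjustment over all genes (adjusted p = 0.0929). Its adjusted p ran from 0.0517 to 0.226 over the 19 alternative settings, all with a log2 fold change below 0.

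Rpl3, the general gene, whose protein reaches the centre where peptide bonds form, had 97.9, 46.8, 37.2 and 43.2 CPM in knockout 1 to 4, against 57.5, 70.6 and 56.4 CPM in control 1 to 3. Knockout 1 was the highest of all 7 libraries and the other knockout libraries were all below the controls. The log2 fold change over all libraries was -0.13 with a 95% interval of -0.71 to 0.46 (edgeR adjusted p = 0.806). Without knockout 1 it was -0.54 and passed the test (edgeR adjusted p = 0.0297), and without knockout 3 it was 0.03. The direction for Rpl3 therefore depended on which knockout library was counted.

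Per kilobase of transcript, Rpl3l was the main gene of the pair in every library. The ratio of Rpl3l to Rpl3 per kilobase was 3.33, 8.35, 9.42 and 8.82 in knockout 1 to 4, against 7.55, 5.87 and 7.64 in control 1 to 3. Knockout 1, which had the highest Rpl3 and the lowest Rpl3l, was the lowest, and the other 3 knockout libraries were above all controls. As a share of the pair per kilobase, Rpl3l was 76.9%, 89.3%, 90.4% and 89.8% in knockout 1 to 4 and 88.3%, 85.4% and 88.4% in control 1 to 3. The log2 ratio differed by -0.01 between the groups (2-sided exact permutation p = 1 over 35 splits, smallest possible p 0.0286), and by 0.35 without knockout 1 (exact p = 0.1, the smallest that 3 against 3 libraries allow).

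**Figure D2:**
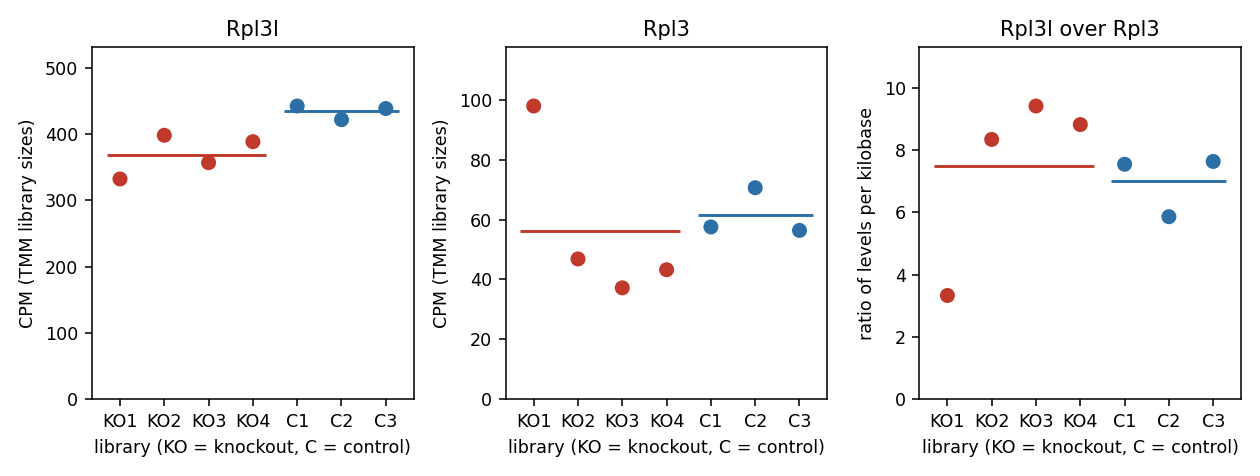
Level of Rpl3l (left) and Rpl3 (middle) in CPM and their ratio per kilobase of transcript (right) in each library, with knockout libraries in red, control libraries in blue and lines at the group means. All knockout points for Rpl3l lie below the control points, and knockout 1 is the highest library for Rpl3 at 97.9 CPM and the lowest for the ratio at 3.33.

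Rplp0 and Rps12 also stood below the controls. Rplp0 encodes the base of the ribosome stalk, which holds the P1 and P2 proteins and brings in elongation factors. It had 450.2, 417, 393 and 490.3 CPM in knockout 1 to 4, against 491, 541 and 551 CPM in control 1 to 3, and knockout 4 lay just below control 1. Its log2 fold change was -0.27 (SE 0.0950, edgeR adjusted p = 0.0889). Rps12, a protein of the beak of the small subunit, had 92.4, 79.0, 80.1 and 93.3 CPM in knockout 1 to 4 and 91.9, 112.5 and 107.8 CPM in control 1 to 3, so control 1 fell among the knockout libraries (log2 fold change -0.27, edgeR adjusted p = 0.0986).

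Rpl30, a large subunit protein, had 164, 88.2, 126 and 90.5 CPM in knockout 1 to 4, against 137, 148 and 133 CPM in control 1 to 3, so that knockout 2 and knockout 4 stood far below the other libraries. A near-identical gene in the table bears on these values. Gm12191, which GENCODE lists as a processed pseudogene, differs from the 348 coding bases of Rpl30 at 1 base. Gm12191 was given 74, 1548, 47 and 1408 expected counts in knockout 1 to 4, against 60.0, 72.2 and 50 in control 1 to 3. Together with 2 further copies in the table, Gm6109 and Gm5481, it took 40.1% and 38.6% of the sum of Rpl30 and its 3 copies in knockout 2 and 4, the 2 libraries with low Rpl30, and 1.49% to 1.93% in the other 5. Summed over Rpl30 and its 3 copies the level was 167, 147, 128 and 147 CPM in knockout 1 to 4, against 139, 151 and 135 CPM in control 1 to 3, and the libraries overlapped. The log2 fold change was -0.25 for Rpl30 alone (edgeR adjusted p = 0.429) and 0.06 with the 3 copies added (adjusted p = 0.717). The copies of Rpl30 were singled out after their values were seen. Of the 83 members, 33 had at least 1 such copy among the other genes of the table (at least 90% identity over at least 200 bases and at least 50% of the copy), 46 copies in all, and adding all of them left the same 4 members called.

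**Figure D3:**
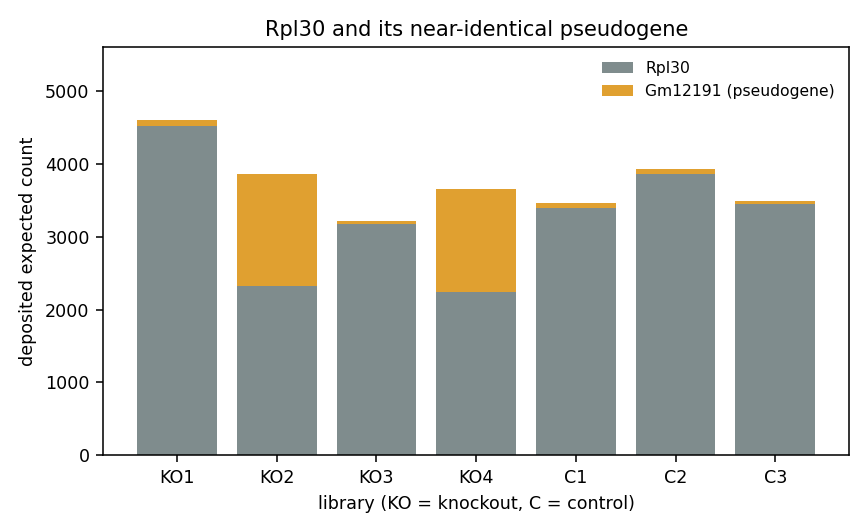
Deposited expected counts of Rpl30 (grey) and of its pseudogene Gm12191 (orange) stacked for each library. Knockout 2 and 4 give 1548 and 1408 counts to the pseudogene, against 47 to 74 in the other 5 libraries.

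The ratios of the other paralogs to their general genes are given as descriptions with no test. Rpl22l1, Rpl7l1 and Rps4l had ratios that separated the groups, and Rps27l did not. Rpl22l1 is a paralog of Rpl22, and in mouse cells Rpl22 is known to repress the Rpl22l1 mRNA. Rpl22l1 had 53.3, 42.9, 42.4 and 53.7 CPM in knockout 1 to 4, against 65.5, 65.0 and 52.3 CPM in control 1 to 3, with control 3 below knockout 1 and 4 (log2 fold change -0.34, edgeR adjusted p = 0.0919). Rpl22 had 97.0, 105, 89.1 and 92.7 CPM in knockout 1 to 4 and 84.7, 84.8 and 82.8 CPM in control 1 to 3, without overlap (log2 fold change 0.19, edgeR adjusted p = 0.125). The ratio of Rpl22l1 to Rpl22 per kilobase separated the groups although neither gene passed the test: it was 2.04, 1.52, 1.77 and 2.15 in knockout 1 to 4, against 2.88, 2.85 and 2.35 in control 1 to 3, a log2 difference of -0.53.

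Rpl7, the general gene of the pair with Rpl7l1 and a large subunit protein that binds its RNA core, had a log2 fold change of 0.01 (edgeR adjusted p = 0.921). The ratio of Rpl7l1 to Rpl7 per kilobase was 0.0711 ± 0.00657 in knockout (SD, n = 4) and 0.0564 ± 0.00150 in control libraries (SD, n = 3), without overlap. Rps27l, which in human cells is induced by p53, and Rps27 had log2 fold changes of 0.18 each (edgeR adjusted p = 0.279 and 0.325), and their ratio per kilobase was 0.395 ± 0.0281 in knockout and 0.399 ± 0.0425 in control libraries. Rps4l, which GENCODE lists as a transcribed processed pseudogene, was the lowest tested member at 0.907, 0.799, 0.359 and 0.443 CPM in knockout 1 to 4, against 1.53, 1.15 and 1.24 CPM in control 1 to 3. The groups did not overlap, the log2 fold change was -1.03 (edgeR adjusted p = 0.0599), and without knockout 1 it passed at -1.27 (adjusted p = 0.0419). Rps4x, its X-linked general gene, had a log2 fold change of -0.08 (edgeR adjusted p = 0.675). Rpl39l, a paralog of Rpl39 known from testis, was the member that did not pass the filter, with 0 counts in all 4 knockout libraries and 1, 0 and 1 counts in control 1 to 3. No gene named Rpl10l was among the members.

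The members with the highest levels per kilobase of transcript were Rps2, Rpl23a, Rpl4 and Rplp0, and Rps15 and Rps14 followed Rps2 in the small subunit. This order depends on the length of the 1 transcript taken for each gene. Rpsa averaged 371 CPM in knockout and 366 CPM in control libraries, and with a transcript of 1938 bases it had rank 14 in the small subunit. Rps2, near the entry of the mRNA channel, averaged 706 CPM in knockout and 658 CPM in control libraries (log2 fold change 0.10, edgeR adjusted p = 0.388). Rpl4, which lines the peptide tunnel, averaged 602 CPM in knockout and 547 CPM in control libraries (log2 fold change 0.14, edgeR adjusted p = 0.247). In both genes every knockout library lay above every control library, by little. Rpl23a, a protein of the tunnel exit, had a log2 fold change of -0.02 (edgeR adjusted p = 0.925), and Rps15, of the small subunit head, had 0.09 (adjusted p = 0.451). The counts of Rps2 and Rpl23a were not whole in any library, as in 26 members in at least 1 library. Over all libraries Rpl3l stood at 289 CPM per kilobase and Rpl3 at 43.3 CPM per kilobase.

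The starts of these genes were read from RefSeq promoters (GRCm38.p6), which held 62 of the 83 members among 27025 genes. The window from 10 bases before to 20 bases after the annotated start is shown for the 4 members that rose. It is also shown for Rpl3l, Rplp0, Rps12 and Rpl22l1, 4 of the 5 members lower at an unadjusted p under 0.05 (edgeR). The longest run of C and T that begins with C is in capitals, since such a run at the start marks a TOP mRNA.
Rpl41: gggccggCTCggaagtgacgacaccgagca
Rps18: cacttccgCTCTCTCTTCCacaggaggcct
Rpl26: ggcaaCTTacagaaccggaagtcgcgtgta
Rpl7l1: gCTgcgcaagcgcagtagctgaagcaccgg
Rpl3l: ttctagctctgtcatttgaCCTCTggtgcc
Rplp0: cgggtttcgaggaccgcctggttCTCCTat
Rps12: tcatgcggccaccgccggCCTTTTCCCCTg
Rpl22l1: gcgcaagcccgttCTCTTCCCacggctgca
The windows lie at chr10:128549149-128549178 (Rpl41, minus strand), chr17:33955646-33955675 (Rps18, minus), chr11:68901556-68901585 (Rpl26, plus), chr17:46782637-46782666 (Rpl7l1, minus), chr17:24727816-24727845 (Rpl3l, plus), chr5:115559457-115559486 (Rplp0, plus), chr10:23787190-23787219 (Rps12, minus) and chr3:28805498-28805527 (Rpl22l1, plus). Rps18 and Rps12 had the longest runs, 11 bases each, and Rpl7l1 the shortest, 2 bases. A run of at least 5 was in the window of 62.9% of members, beside 35.8% of all genes. Of the 4 genes that rose, Rps18 had such a run, and all 4 genes shown that stood lower had one. Those 4 lower genes were not called at an adjusted p under 0.05. Most of the 17 members with a log2 fold change below 0 are not shown, and the contrast was not tested. The run was sought anywhere in the window. In Rps18 it spanned the annotated start, and in the 4 lower genes it began after that start. A run in the window therefore does not by itself show a TOP mRNA. The annotated start may differ from the one used in muscle.

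In the whole 300 bases from 250 before to 50 after the start, CCGGAAG on either strand, the core letters bound by ETS factors such as GABP, was in 40.3% of members, beside 9.14% of all genes. It was in the windows of Rpl41, Rps18 and Rpl26 and not in that of Rpl3l. TATAAA on the gene strand was in 9.68% of members, beside 8.88% of all genes. CANNTG, the palindromic E-box letters that MyoD-type factors bind, was in 48.4% of members, beside 72.1% of all genes. The 250 bases upstream of Rpl3l (chr17:24727576-24727825, plus strand) are shown because it is the muscle gene of the set, with its 3 CANNTG matches in capitals.
Rpl3l: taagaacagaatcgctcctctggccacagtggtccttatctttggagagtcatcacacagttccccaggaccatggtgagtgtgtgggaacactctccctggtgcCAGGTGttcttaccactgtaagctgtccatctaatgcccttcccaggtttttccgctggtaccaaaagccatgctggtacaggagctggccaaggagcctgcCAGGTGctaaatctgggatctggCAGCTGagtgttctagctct
A match gives the letters only and no factor's binding was measured.

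Genes that make and run ribosomes were set beside the ribosomal proteins. Of 6 tested ribosomal protein genes and copies with names outside the pattern, 1 rose (16.7%, beside 6.67% of all tested genes). The list includes Rpl37rt and Rps27rt, near-identical copies of Rpl37 and Rps27, and GENCODE lists Rpl37rt as a transcribed processed pseudogene. The 1 was Rack1, a scaffold on the small subunit, with 261 ± 7.98 CPM in knockout (SD, n = 4) and 217 ± 13.6 CPM in control libraries (SD, n = 3). Its log2 fold change was 0.27 (edgeR adjusted p = 0.0407). Of 17 tested genes of ribosomal RNA transcription 3 rose (17.6%, beside 6.67% of all tested genes): Rrn3, which links RNA polymerase I to growth signals (log2 fold change 0.26, adjusted p = 0.0367), Polr1b, a core subunit of that polymerase (0.34, adjusted p = 0.0430), and Ubtf, which binds ribosomal DNA (0.26, adjusted p = 0.0484). All 17 had a log2 fold change above 0, with a median of 0.18. Neither list kept a call in every leave-one-out fit: Rack1 was lost in all 7, and 0 or 1 of the 17 genes remained called.

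Of 46 tested genes of ribosome assembly in the nucleolus 6 rose (13.0%, beside 6.67% of all tested genes), with a median log2 fold change of 0.21. Rrp12, an export and processing factor, averaged 78.0 ± 6.04 CPM in knockout and 52.3 ± 4.52 CPM in control libraries (log2 fold change 0.58, edgeR adjusted p = 0.00739). Ncl, nucleolin, averaged 236 ± 14.2 CPM in knockout and 166 ± 14.8 CPM in control libraries (0.51, adjusted p = 0.00876). Tcof1, which supports ribosomal RNA synthesis, and Nop14, of the small subunit processome, had log2 fold changes of 0.48 (adjusted p = 0.0103) and 0.42 (adjusted p = 0.0107). Leaving out 1 library at a time gave 4 to 11 genes higher, 11 without control 2.

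Of 36 tested initiation factors 8 rose (22.2%, beside 6.67% of all tested genes), with a median of 0.21, and 34 had a log2 fold change above 0. Pabpc1, the poly(A)-binding protein, averaged 85.5 ± 5.69 CPM in knockout and 55.1 ± 2.91 CPM in control libraries (log2 fold change 0.63, edgeR adjusted p = 0.00376). Eif3a and Eif3d, subunits of the factor that binds the small subunit, had log2 fold changes of 0.55 (adjusted p = 0.00641) and 0.59 (adjusted p = 0.00812), and Eif4g3, a scaffold of the cap complex, 0.60 (adjusted p = 0.0105). The count was 4 without knockout 3, control 1, control 2 or control 3. Of 13 elongation and release genes 2 rose (15.4%, beside the same 6.67%) and 0 fell. The 2 were Eef2k, the kinase that slows elongation (0.59, adjusted p = 0.00797), and Etf1, the release factor (0.26, adjusted p = 0.0396). The median of these genes was 0.05, with 9 above 0 and 4 below. Eef1a1, an elongation factor, was lower in every knockout library than in every control library and was not called (-0.39, adjusted p = 0.0529). Leaving out 1 library at a time gave 1 gene higher, except for 3 without knockout 2, and 0 to 1 lower.

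Of 15 tested genes through which mTOR controls translation 5 rose (33.3%, beside 6.67% of all tested genes), with a median log2 fold change of 0.23. The list of 15 includes brakes as well as effectors. Larp1, which binds TOP starts, averaged 218 ± 19.1 CPM in knockout and 149 ± 1.08 CPM in control libraries (log2 fold change 0.55, edgeR adjusted p = 0.00654). Eif4ebp1, which blocks the cap-binding factor, averaged 50.3 ± 11.4 CPM in knockout and 23.4 ± 5.37 CPM in control libraries (1.10, adjusted p = 0.0128). Ddit4 and Tsc1, both inhibitors of mTOR complex 1, had log2 fold changes of 1.94 (adjusted p = 0.0167) and 0.37 (adjusted p = 0.0231). The count was 3 without knockout 3, control 1 or control 2 and 1 without control 3.

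Of 22 tested genes with a TOP start outside the ribosomal proteins 3 rose (13.6%, beside 6.67% of all tested genes) and 1 fell (4.55%, beside 8.23%), with a median of 0.14. The 3 were Pabpc1, Rack1 and Cct4, a chaperonin subunit (log2 fold change 0.47, edgeR adjusted p = 0.0166), and the 1 was Vim, vimentin of fibroblasts and other non-fibre cells, at 36.2 ± 5.83 CPM in knockout and 71.2 ± 12.7 CPM in control libraries (-0.97, adjusted p = 0.00674). Leaving out 1 library at a time gave 1 to 3 higher, 1 without control 1 or control 3, and 1 to 2 lower, 2 without knockout 2. Of 8 genes of the feedback from ribosomal proteins to p53, 1 rose (12.5%, beside 6.67% of all tested genes) and 0 fell. The 1 was the cell cycle inhibitor Cdkn1a (log2 fold change 1.01, edgeR adjusted p = 0.0111). The median of the 8 was 0.05, with 6 above 0 and 2 below.

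Mitochondrial ribosomal proteins, which translate the mRNAs of mitochondrial DNA, stood on the other side of 0. Of 77 tested, 12 fell (15.6%, beside 8.23% of all tested genes) and 1 rose (1.3%, beside 6.67%), with a median log2 fold change of -0.14, and 64 were below 0. Mrpl14 averaged 23.0 ± 1.75 CPM in knockout and 32.2 ± 1.71 CPM in control libraries (-0.49, edgeR adjusted p = 0.0104), and Mrpl12, also known to bind mitochondrial RNA polymerase, 59.6 ± 2.63 CPM in knockout and 80.1 ± 5.86 CPM in control libraries (-0.43, adjusted p = 0.0107). Mrpl50 was the gene that rose (0.39, adjusted p = 0.0144), a call lost without control 3. Calls below 0 numbered 4 without knockout 3, 5 without knockout 4, 3 without control 1 and 2 without control 2 or control 3. The difference between the lists was not tested. The summed slow fibre markers, from fibres rich in mitochondria, were lower in all knockout libraries, and their part in these values was not tested.

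**Figure D4:**
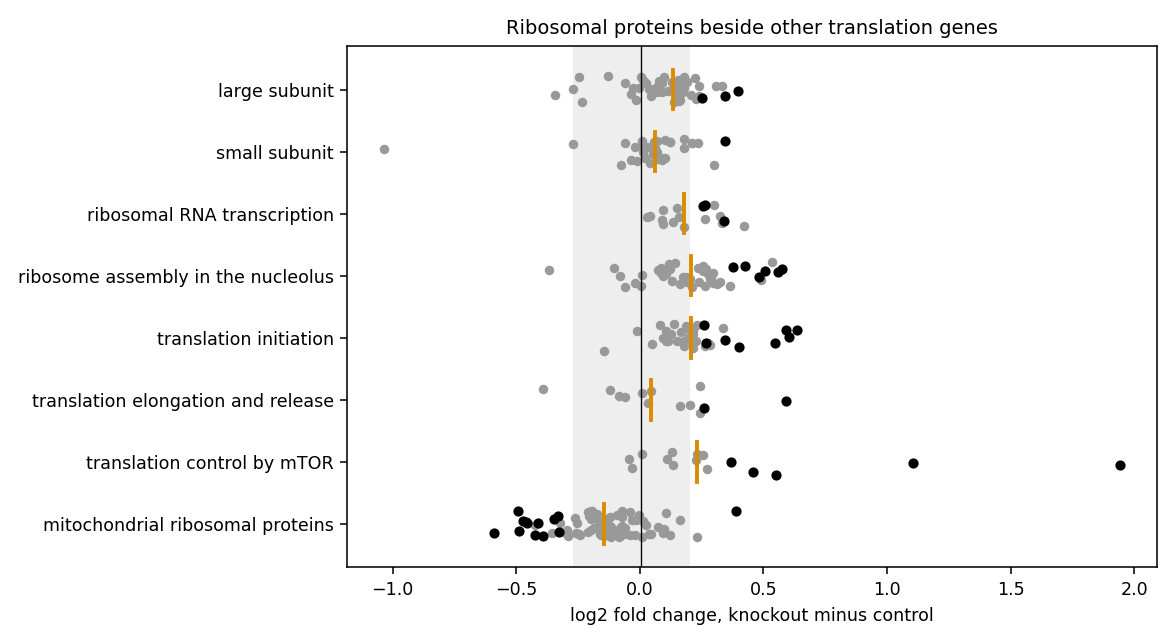
Log2 fold change (knockout minus control) of each tested gene of the ribosomal protein subunits and of 6 other lists, with black points for an adjusted p under 0.05, orange bars for list medians and a grey band between the quartiles of all tested genes (-0.27 and 0.20). Medians of the lists for assembly, initiation and mTOR control lie at 0.21 to 0.23, that for ribosomal RNA transcription at 0.18 and that for elongation and release at 0.05. Those of the ribosomal protein subunits lie at 0.13 and 0.06, and that of the mitochondrial ribosomal proteins at -0.14.

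Calls differed between the lists of fibre and other cell types. Of the 10 slow fibre markers 5 fell, of 10 fibroblast markers 4, of 10 macrophage markers 3 and of 8 pericyte and smooth muscle markers 5. Of 8 Schwann cell markers 2 fell, of 5 tested erythroid markers 3 and of 7 tested adipocyte markers 3. The shares ran from 25% to 62.5% in these lists, beside 8.23% of all tested genes. Of 10 endothelial markers 1 fell (10%), near that share, and of 8 satellite cell markers 0 fell. Of the 10 skeletal fibre markers 0 fell and 1 rose (10%, beside 6.67% of all tested genes). That gene was Actn3, a fast-type gene (log2 fold change 0.74, edgeR adjusted p = 0.0214). Erythroid markers summed to 101 to 235 CPM in knockout and 224 to 809 CPM in control libraries, with overlap. Endothelial markers summed to 244 to 291 CPM in knockout and 287 to 353 CPM in control libraries, and macrophage markers to 38.7 to 62.1 CPM in knockout and 56.4 to 92.1 CPM in control libraries. Satellite cell markers summed to 219 to 266 CPM in knockout and 200 to 254 CPM in control libraries. The sums of pericyte and smooth muscle markers were 669 to 704 CPM in knockout and 686 to 785 CPM in control libraries. In each of these lists the groups overlapped. Ribosomal protein mRNAs are present in all of these cells. Their part in the values above was not tested.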

How the data were processed

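The genome build was mm10, and STAR 2.7.10a, RSEM 1.2.28 and DESeq2 (listed as version 1.3.40) were used, per the submitters' processing notes. The deposited values are expected counts per gene symbol. The sources used here give neither the annotation nor the strand setting, so reads of overlapping genes on opposite strands may not be told apart. Expected counts were rounded, filtered with filterByExpr and scaled by TMM, and all 21487 genes entered 1 fit by the quasi-likelihood F test of edgeR 4.0.16 (R 4.3.3, legacy method off), without covariates. P-values were adjusted by Benjamini-Hochberg over the 13409 tested genes, and a gene was called under 0.05. An SE was taken as the size of the log2 fold change divided by the root of F. CPM are counts per 1e6 on TMM library sizes. Positions, transcript lengths (APPRIS principal transcript) and coding sequences come from GENCODE M21 (GRCm38, the same assembly as mm10), which matched all 83 members. Near-identical copies were found by BLAST. The test was checked on simulated counts. No libraries were near-identical. Values of 1 member and the sequences of 1 pair are not reported here.

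The members and the gene lists were chosen with earlier results of these data known. Named were Rpl3, Rpl3l, all called members, both genes of each paralog pair and the members nearest the count filter. Also named in each subunit were the 3 members with the highest level per kilobase, the largest rise, the largest fall and the smallest p. Up to 4 called genes with the smallest p were named per other list. Other named genes, and the members listed as separated or as called by DESeq2, were chosen after their values were seen. Alternatives were RLE, upper quartile or total count scaling, other count filters, leaving out mitochondrial DNA messages and myosins, DESeq2 1.42.0, a robust prior, counts rounded down, a replicate block, leaving out each library and, added after seeing the data, adding near-identical copies and the older edgeR method.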

Additional observations from a re-analysis of the deposited data

Results flagged for a closer look

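Among the 4 knockout libraries, 2 of the tested members reported had a library far from the others by Dixon's test at the 95% level. Chance alone gives this in about 1 of 20 groups. With 82 members tested, 2 such cases are no more than chance would give. Rpl3 had 97.9 CPM in knockout 1, against 37.2 to 46.8 CPM in the other 3 knockout libraries. Rps21 had 61.3 CPM in knockout 3, against 71.7 to 72.6 CPM in the others.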

How the results depend on the processing

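The 4 ribosomal proteins that rose became 1 with upper quartile scaling, total counts or no filter, 2 with mitochondrial DNA messages and myosins left out, 10 with DESeq2, and 0 to 2 when 1 library was left out (0 without control 1). The number that fell was 0 in each of these except without knockout 1, where it was 2, Rpl3 and Rps4l (range 0 to 2). Replicate numbers are shared by the groups, but same-numbered libraries deviated together only weakly (correlations 0.0945, 0.134 and 0.0854 for numbers 1 to 3), so the numbers were not taken to pair samples, although each numbered pair correlated best with its own number. A replicate block left 1 member called, Rpl7l1. Rpl3 ran from -0.54 without knockout 1 (adjusted p = 0.0297) to 0.0275 without knockout 3. The log2 ratio of Rpl3l to Rpl3 ran from -0.15 to 0.35 and was above 0 without knockout 1 (0.35), control 1 (0.05) or control 3 (0.06). Of the uncalled genes near 0, Rpl7 turned to -0.0349 with upper quartile scaling and ran from -0.0297 (without control 1) to 0.0678 (without control 2) with 1 library left out, also turning without knockout 1 and control 3. Rpl23a ran from -0.0854 (without knockout 1) to 0.0419 (without knockout 3), also above 0 without knockout 2 and control 2, and Rps4x from -0.1583 (without knockout 1) to 0.0037 (without knockout 3). Rpl30 turned to 0.0573 with copies added. The subunit medians stayed above 0 in all 19 alternatives, at 0.08 to 0.18 (large) and 0.01 to 0.11 (small). No scaling moved the median of all genes by more than 0.1. The causes of these changes were not tested.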
